A study of Homo sapiens with 30 samples.

Results

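ERG, FLI1, ETS1, ETS2, ETV1, ETV4, ETV5, ETV6, GABPA and ELK1 are transcription factors of the ETS family, and their 10 rows were taken by gene symbol from an expression table of 26255 genes. All 10 reached 1 FPKM (fragments scaled to transcript length and to library size) in at least 1 line, as did 12670 genes in all. RNA-seq was conducted in 4 lines made from RWPE1, an immortalized normal prostate epithelial cell line. RWPE1-Vector cells carried the empty retroviral vector, RWPE1-ERG cells a retroviral FLAG-tagged ERG, RWPE1-mAKT cells a myristoylated and so constitutively active AKT, and RWPE1-ERG+mAKT cells (here ERG/mAKT) both. Each line had 3 libraries, but the table gives 1 pooled FPKM per line, so no FPKM below has a replicate error, no difference between lines was tested, and the depth of the RNA libraries is unknown. Peaks near the same genes were read from 10 deposited lists, each from 1 library: ERG ChIP-seq in ERG/mAKT cells and in the prostate cancer line VCaP, whose ERG comes from a fusion with TMPRSS2, ERK2 ChIP-seq in vector and ERG cells, ATAC-seq (a map of open chromatin) in ERG, mAKT and ERG/mAKT cells, and H3K27me3 ChIP-seq (a histone methylation of silenced genes, made by the EZH2 complex) in vector, ERG and ERG S96E cells, the last expressing a phosphomimetic ERG mutant.

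ETS factors share a DNA-binding domain that recognizes a GGAA core, so several members expressed in a cell can compete for the same sites. ERG and FLI1 are close relatives that are normally active in endothelial and blood cells, and ERG is silent in normal prostate epithelium. ETS1 and ETS2 are activated by ERK phosphorylation and often act beside AP-1. ETV1, ETV4 and ETV5 form the PEA3 group, whose transcription follows Ras/ERK signaling through relief of the repressor CIC and whose proteins are degraded through COP1. ETV6 is a repressor, GABPA binds with GABPB subunits at the promoters of housekeeping genes, and ELK1 acts with SRF at immediate early genes.

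The cells looked epithelial in all 4 lines. All 7 epithelial markers (KRT5, KRT14, KRT8, KRT18, CDH1, EPCAM and TP63) were above 1 FPKM in each line, with a summed level of 5634 to 7988 FPKM. At the 2-fold limit used below, 2 of these 7 rose and 2 fell for ERG over vector, 0 for mAKT over vector, 1 rose for ERG/mAKT over ERG and 1 fell for ERG/mAKT over mAKT, and the part of such shifts in the members' values was not tested. None of 6 endothelial markers and none of 4 blood markers reached 1 FPKM in any line, and their summed levels were 0.078 to 0.505 and 0.015 to 0.161 FPKM. Of 4 fibroblast markers 1 did, COL1A1, at 1.78 to 2.18 FPKM. In a bulk sample a change in the share of cells and a change in RNA per cell cannot be told apart.

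The introduced genes matched the labels. ERG was at 0.26 FPKM in vector cells, 358 in ERG cells, 0.43 in mAKT cells and 328 in ERG/mAKT cells, so the 2 lines with the construct stood far above the 2 without. The ratio of FPKM was 1355 for ERG over vector and 755 for ERG/mAKT over mAKT, and ERG in the 2 ERG lines differed by a ratio of 0.917. AKT1, the kinase of the other construct, was at 58.7 FPKM in vector cells, 64.2 in ERG cells, 156 in mAKT cells and 281 in ERG/mAKT cells. AKT1 was thus 1.80 times higher in ERG/mAKT than in mAKT cells, and its part in the differences between those lines was not tested.

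The construct put ERG at the top of its family. In vector cells ERG ranked 21st among 28 ETS genes listed and made up 0.0995% of their summed FPKM of 265. In ERG cells it ranked first and made up 58.5% of a sum of 611, and in ERG/mAKT cells 57.3% of 572. The highest ETS gene other than ERG was ERF in every line, a repressor with an ETS domain, and ERG exceeded it 6.15 times in ERG cells and 5.82 times in ERG/mAKT cells. The sum of the other 27 genes moved little beside this, from 265 FPKM in vector cells to 254, 259 and 244 in ERG, mAKT and ERG/mAKT cells.

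**Figure D1:**
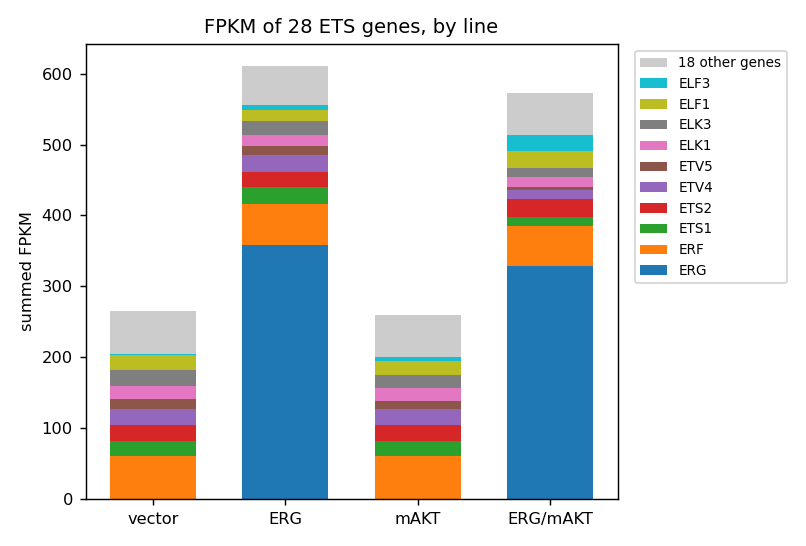
Stacked bars of the FPKM of 28 ETS genes in the 4 RWPE1 lines, with the vertical axis in summed FPKM, starting at 0. Each bar is 1 pooled value per line. ERG holds 58.5% of the sum in ERG cells and 57.3% in ERG/mAKT cells, and the remainder is of similar height in all 4.

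Among the other 9 members, the order of levels in vector cells was ETV4 (23.6 FPKM), ETS2 (22.2), ETS1 (21.0), ELK1 (18.7), ETV5 (13.6), GABPA (9.14), FLI1 (2.27), ETV6 (2.17) and ETV1 (1.44). Without replicate values it cannot be said which neighbours in that order differ beyond their spread. ETV4, ETS2 and ETS1 were higher than 67.9 to 70.8% of the expressed genes, and ETV1, FLI1 and ETV6 than 9.65 to 16.4%. In ERG/mAKT cells the order opened with ETS2 (25.4 FPKM) and ELK1 (14.9), followed by ETS1 (13.5) and ETV4 (12.0), while ETV5 was at 4.42 FPKM, above 28.4% of expressed genes.

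**Figure D2:**
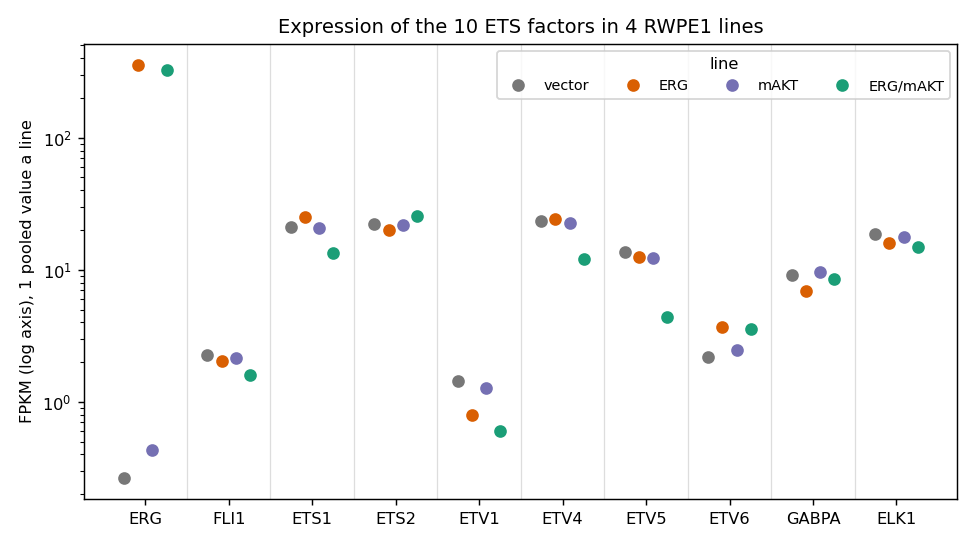
FPKM of the 10 members in the 4 lines on a log axis, with 1 point per line (1 pooled value, no error). ERG lies above 300 FPKM in the 2 lines with the construct. ETS1, ETV4, ETV5, FLI1, ETV1 and ELK1 each have their lowest point in ERG/mAKT cells.

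To determine which members changed with ERG and with mAKT, the lines were compared in 4 pairs on the log2(FPKM + 1) scale, and a gene was called when it differed at least 2-fold. The pairs share lines, so they are not independent. For ERG over vector 1 member rose, ERG itself, and none of the 10 fell, where 3.58% of the 12670 expressed genes rose and 0.971% fell. For mAKT over vector no member was called in either direction, against 1.14% of genes that rose and 0.813% that fell. For ERG/mAKT over ERG no member rose and 1 fell, ETV5, against 2.02% and 2.47% of genes. For ERG/mAKT over mAKT ERG rose and ETV5 fell, against 2.03% and 0.868% of genes. The median log2 ratio of the members was −0.12, −0.03, −0.14 and −0.25 in these 4 comparisons in turn, beside −0.01, 0.02, −0.04 and −0.07 over all expressed genes.

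The PEA3 group held the member that fell. ETV5 was at 13.6 FPKM in vector cells, 12.5 in ERG cells, 12.3 in mAKT cells and 4.42 in ERG/mAKT cells. The first 3 values lie close together and the last stands apart. The log2 ratio was −1.31 for ERG/mAKT over ERG, with 146 of 12670 genes lower, and −1.29 for ERG/mAKT over mAKT, with 77 genes lower. In contrast, it was −0.12 for ERG over vector and −0.14 for mAKT over vector, so neither construct alone moved ETV5 by as much as the pair.

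ETV4 was also lowest in ERG/mAKT cells, without passing the 2-fold limit. It was at 23.6 FPKM in vector cells, 24.3 in ERG cells, 22.6 in mAKT cells and 12.0 in ERG/mAKT cells. Its log2 ratio was −0.96 for ERG/mAKT over ERG and −0.86 for ERG/mAKT over mAKT, with 338 and 141 genes lower. As a plain ratio of FPKM the first of these was 0.494, which is past 2-fold, so the call depended on the pseudocount. ETV1, the weakest of the group, was at 1.44 FPKM in vector cells, 0.79 in ERG cells, 1.27 in mAKT cells and 0.60 in ERG/mAKT cells. Both ERG lines were lower than both lines without ERG, with log2 ratios of −0.45 for ERG over vector and −0.51 for ERG/mAKT over mAKT. The summed FPKM of the 3 genes was 38.7 in vector cells, 37.6 in ERG cells, 36.2 in mAKT cells and 17.0 in ERG/mAKT cells.

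ETS1 was at 21.0 FPKM in vector cells, 25.0 in ERG cells, 20.7 in mAKT cells and 13.5 in ERG/mAKT cells. It was highest with ERG alone and lowest with both constructs, and its log2 ratio was 0.24 for ERG over vector, −0.85 for ERG/mAKT over ERG and −0.59 for ERG/mAKT over mAKT. ETS2 moved the other way within a narrower range, at 22.2 FPKM in vector cells, 19.8 in ERG cells, 22.0 in mAKT cells and 25.4 in ERG/mAKT cells. Neither passed the 2-fold limit in any pair.

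ETV6 was at 2.17 FPKM in vector cells, 3.68 in ERG cells, 2.46 in mAKT cells and 3.56 in ERG/mAKT cells, higher in both ERG lines than in both others. Its log2 ratio was 0.56 for ERG over vector and 0.39 for ERG/mAKT over mAKT. FLI1, the closest relative of ERG, was at 2.27, 2.02, 2.16 and 1.60 FPKM in vector, ERG, mAKT and ERG/mAKT cells. GABPA was at 9.14, 6.96, 9.70 and 8.52 FPKM in the same order of lines, and ELK1 at 18.7, 15.9, 17.6 and 14.9 FPKM. The highest level of these last 3 genes was 1.25 to 1.42 times their lowest.

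Among the 18 other ETS genes listed, 10 were expressed and 1 was called, ELF3, an epithelial ETS factor that rose in all 4 comparisons. ELF3 was at 2.26 FPKM in vector cells, 5.81 in ERG cells, 5.57 in mAKT cells and 23.4 in ERG/mAKT cells. The lines with 1 construct were close to each other, the line with both stood above them, and the log2 ratios were 1.06 for ERG over vector, 1.01 for mAKT over vector, 1.84 for ERG/mAKT over ERG and 1.90 for ERG/mAKT over mAKT. ELF3 in ERG/mAKT cells thus exceeded every member except ERG and ETS2. No other gene of the 18 was called, and ETV7, at a low level, was at 0.27 FPKM in vector, 0.64 in ERG, 0.51 in mAKT and 1.79 in ERG/mAKT cells.

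Genes induced by ERK signaling, most of which feed back on it (here ERK feedback genes), were then compared with the PEA3 group. All 10 listed (DUSP4, DUSP5, DUSP6, SPRY1, SPRY2, SPRY4, SPRED1, SPRED2, PHLDA1 and EGR1) were expressed. For ERG/mAKT over mAKT 9 of the 10 had a negative log2 ratio, with a median of −0.70, and 1 fell, DUSP6. Of all expressed genes 63.6% were negative in that comparison, with a median of −0.07. For ERG/mAKT over ERG 9 of 10 were negative with a median of −0.40, beside 56.4% of all expressed genes, and none was called. For ERG over vector 8 of 10 were negative with a median of −0.24, beside 51.3% of genes, and for mAKT over vector 4 of 10 with a median of 0.02, beside 44.8%. DUSP6, a phosphatase that inactivates ERK, was at 86.2 FPKM in vector cells, 59.6 in ERG cells, 74.8 in mAKT cells and 32.5 in ERG/mAKT cells, with a log2 ratio of −1.18 for ERG/mAKT over mAKT. Like ETV5, it was lowest in the line with both constructs, as was every other gene listed here but SPRY1. The share of all expressed genes lowest in that line was not counted. SPRY1, which inhibits receptor tyrosine kinase signaling, was the exception, at 2.36 FPKM in vector and 3.76 in ERG/mAKT cells.

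**Figure D3:**
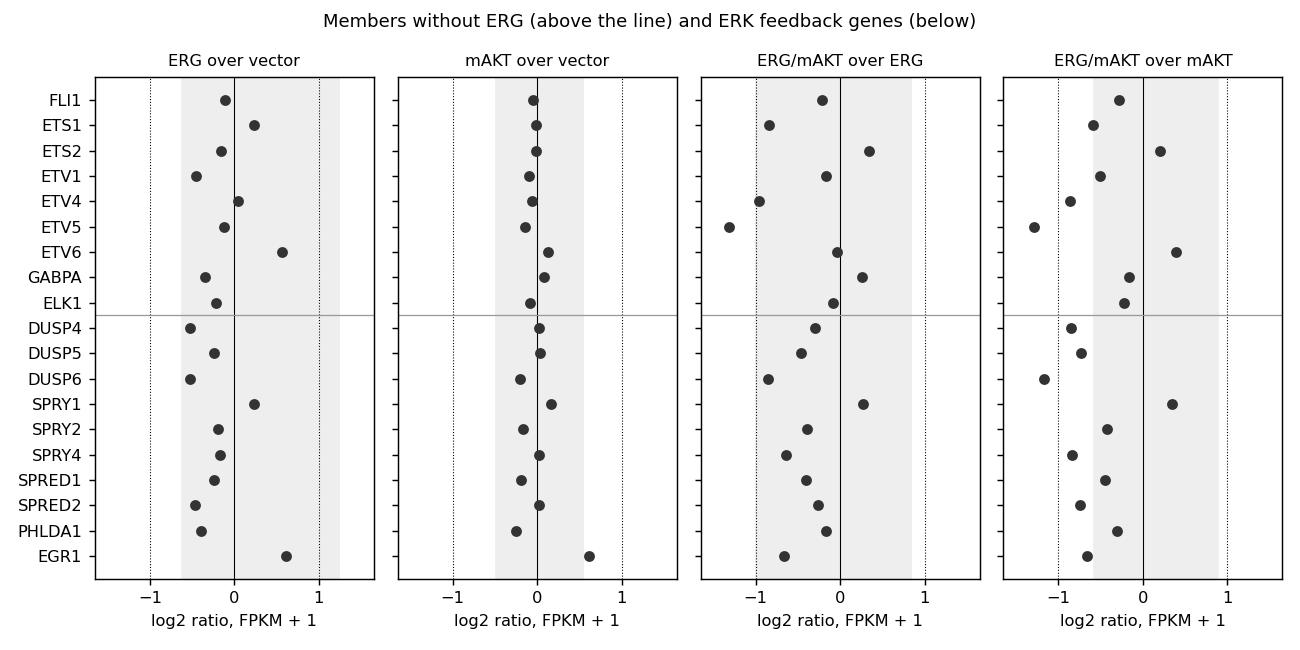
Log2 ratio of FPKM + 1 of 9 members (ERG left out, at 8.15 for ERG over vector and 7.84 for ERG/mAKT over mAKT) and 10 ERK feedback genes in 4 comparisons. Each point is 1 pooled value per line, the grey band holds the middle 95% of expressed genes, and the dotted lines mark 2-fold. ETV5 alone lies left of the band for ERG/mAKT over ERG. For ERG/mAKT over mAKT, ETV5, ETV4, ETS1, DUSP6, DUSP4, SPRY4, SPRED2, DUSP5 and EGR1 do.

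Few of the partners and regulators of the members changed. Of 14 genes listed (among them CIC, COP1, DET1, GABPB1, GABPB2, SRF, EWSR1, CREBBP, EP300, EZH2, TMPRSS2 and AKT1), 13 were expressed, and 1 was called, AKT1. CIC, the repressor of the PEA3 genes, was at 17.7, 16.1, 17.7 and 15.8 FPKM in vector, ERG, mAKT and ERG/mAKT cells. COP1, the ubiquitin ligase that degrades their proteins and is listed under its older symbol, was at 14.6, 14.2, 14.9 and 13.8 FPKM. TMPRSS2, whose promoter drives ERG in prostate tumors with the rearrangement, was at most 0.0536 FPKM. Of 7 genes named as ERG targets in the literature, CTGF, a secreted matrix protein, rose for ERG over vector from 10.2 to 24.1 FPKM and was at 6.33 and 5.54 FPKM in mAKT and ERG/mAKT cells. VIM, a mesenchymal filament protein, was at 737, 1056, 366 and 288 FPKM in vector, ERG, mAKT and ERG/mAKT cells, and fell for mAKT over vector and for ERG/mAKT over ERG. CTGF fell for ERG/mAKT over ERG too, and the others, among them ENC1, PLAU, VCL and IRS2, were not called in any pair.

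For the 2 members whose log2(FPKM + 1) spanned at least 1 over the lines, ERG and ETV5, genes of most similar pattern were taken from the 9315 offered with at least 5 FPKM in any line. Likeness was the Euclidean distance between centred log2 values over the 4 lines. Among the nearest to ETV5 were DCBLD2, a membrane receptor (distance 0.134), and RPS6KA2, a kinase activated by ERK (0.271). DCBLD2 was at 57.0, 51.1, 45.6 and 18.9 FPKM in vector, ERG, mAKT and ERG/mAKT cells. RPS6KA2 was at 9.0, 7.45, 7.70 and 3.36 FPKM. Both were lowest in ERG/mAKT cells, which follows from their selection by likeness to ETV5 over the same 4 lines. Nearest to ERG were 3 small nucleolar RNAs, SNORD78, SNORD91A and SNORD116-20, at distances of 1.35, 2.89 and 2.95, each listed at 0 in vector and mAKT cells. SNORD78 was at 121 FPKM in ERG and 84.8 in ERG/mAKT cells. Such short genes get a high FPKM from few fragments, and whether their presence in the ERG lines is stable over libraries was not tested.

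To ask whether ERG occupied its own family's genes, ERG peaks were sought within 20 kb of each locus. In ERG/mAKT cells 13 of the 9113 ERG peaks lay there, at 5 of the 10 members, where 30.2% of all 26255 loci had at least 1. The members have a median locus of 81.5 kb, beside 29.1 kb for all genes, and so offer more room for a peak. The list was made from 10306483 ChIP reads and 14670664 input reads. Of the 13 peaks 5 were at ERG, 4 at ETS1, 2 at ETV6, 1 at ETS2 and 1 at ETV1, and none was within 1 kb of a gene start.

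Of these 13 peaks, 8 lay on coding exons, all of them of ERG or ETS1. Of all 9113 peaks in the list, 196 (2.15%) touched a coding exon of any gene, and of the 450 with a q-value of at most 0.01, 14 (3.11%) did. ERG and ETS1 were the only 2 genes in the list with at least 3 coding exons under peaks, of 199 genes with at least 1. ERG had 4 of its 10 coding exons covered and ETS1 4 of 9. In ETS1 the covered exons were the 4 longest, at 201 to 261 bases against 69 to 145 for the others, while in ERG the lengths overlapped, at 72 to 518 bases for the covered exons and 18 to 152 for the others. Of the 1834 bases of these peaks 1680 were coding, but not every peak ended near the exon borders. The peak at coding exon 6 of ERG was 59.5% coding, and that at coding exon 4 of ETS1 covered 54.2% of the exon.

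The 5 peaks of lowest q-value among the 13 were all exonic. Over the 8 exonic peaks the fold enrichment was 4.24 to 14.0 with a pileup of 5 to 20 fragments, and 5 of the 8 had a q-value of at most 0.01. The 5 peaks elsewhere had a fold enrichment of 2.94 to 4.80 with a pileup of 4 to 6, and none of the 5 had such a q-value. The highest was on the last coding exon of ERG, which encodes most of the DNA-binding domain (chr21:39755314-39755848, fold enrichment 14.0, q = 1.04e-20), and covered all 518 coding bases of that exon. It was followed by coding exon 2 (chr21:39817311-39817524, 10.6, q = 1.1e-12) and coding exon 4 (chr21:39775413-39775602, 7.64, q = 5.17e-07). At ETS1 the last coding exon (chr11:128332279-128332503) had a fold enrichment of 7.06 (q = 1.27e-05), and coding exon 7 (chr11:128350061-128350309) one of 6.46 (q = 9.79e-05). The ETS1 peaks were singled out after their positions were seen. The line carries an ERG construct, and fragments of an introduced ERG sequence without introns cannot be told apart from those of the exons at the locus. Of the 13 coding exons of AKT1, the kinase of the line's other construct, 0 lay under an ERG peak in ERG/mAKT cells. No ETS1 construct is described for the line, and the source of the exonic ETS1 fragments was not tested.

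The sequences below are shown so that the exonic and the other peaks can be compared. They are on the forward strand of GRCh37, 5′ to 3′, and both genes are transcribed from the reverse strand. Capitals mark bases of a coding exon. The first is a window of 201 bases at the summit and the other 3 are whole peaks.
ERG last coding exon, chr21:39755547-39755747: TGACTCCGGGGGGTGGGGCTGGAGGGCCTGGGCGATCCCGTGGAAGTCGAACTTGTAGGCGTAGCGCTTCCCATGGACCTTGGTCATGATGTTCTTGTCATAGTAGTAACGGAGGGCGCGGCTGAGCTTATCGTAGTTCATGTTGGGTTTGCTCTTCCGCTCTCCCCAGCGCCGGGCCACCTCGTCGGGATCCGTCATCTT
ERG coding exon 2, chr21:39817311-39817524: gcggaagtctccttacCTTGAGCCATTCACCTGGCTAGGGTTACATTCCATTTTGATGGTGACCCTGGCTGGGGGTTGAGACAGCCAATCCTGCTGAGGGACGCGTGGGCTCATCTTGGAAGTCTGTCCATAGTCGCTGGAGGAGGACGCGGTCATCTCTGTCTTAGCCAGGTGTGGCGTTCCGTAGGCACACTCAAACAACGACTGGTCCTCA
ETS1 coding exon 7, chr11:128350061-128350309: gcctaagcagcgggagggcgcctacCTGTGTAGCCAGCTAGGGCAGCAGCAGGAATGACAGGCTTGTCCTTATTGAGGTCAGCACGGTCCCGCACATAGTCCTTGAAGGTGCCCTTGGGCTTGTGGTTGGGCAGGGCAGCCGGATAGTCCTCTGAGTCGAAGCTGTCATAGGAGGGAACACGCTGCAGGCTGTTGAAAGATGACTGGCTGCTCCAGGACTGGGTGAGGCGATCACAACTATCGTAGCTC
ETS1 coding exon 4, chr11:128359213-128359321: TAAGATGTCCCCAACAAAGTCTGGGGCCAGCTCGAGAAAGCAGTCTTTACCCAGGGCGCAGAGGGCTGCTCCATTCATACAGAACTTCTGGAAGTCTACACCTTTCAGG
The third of these runs from lower case into capitals at the border of exon 7, and the first and last lie wholly within coding sequence.

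**Figure D4:**
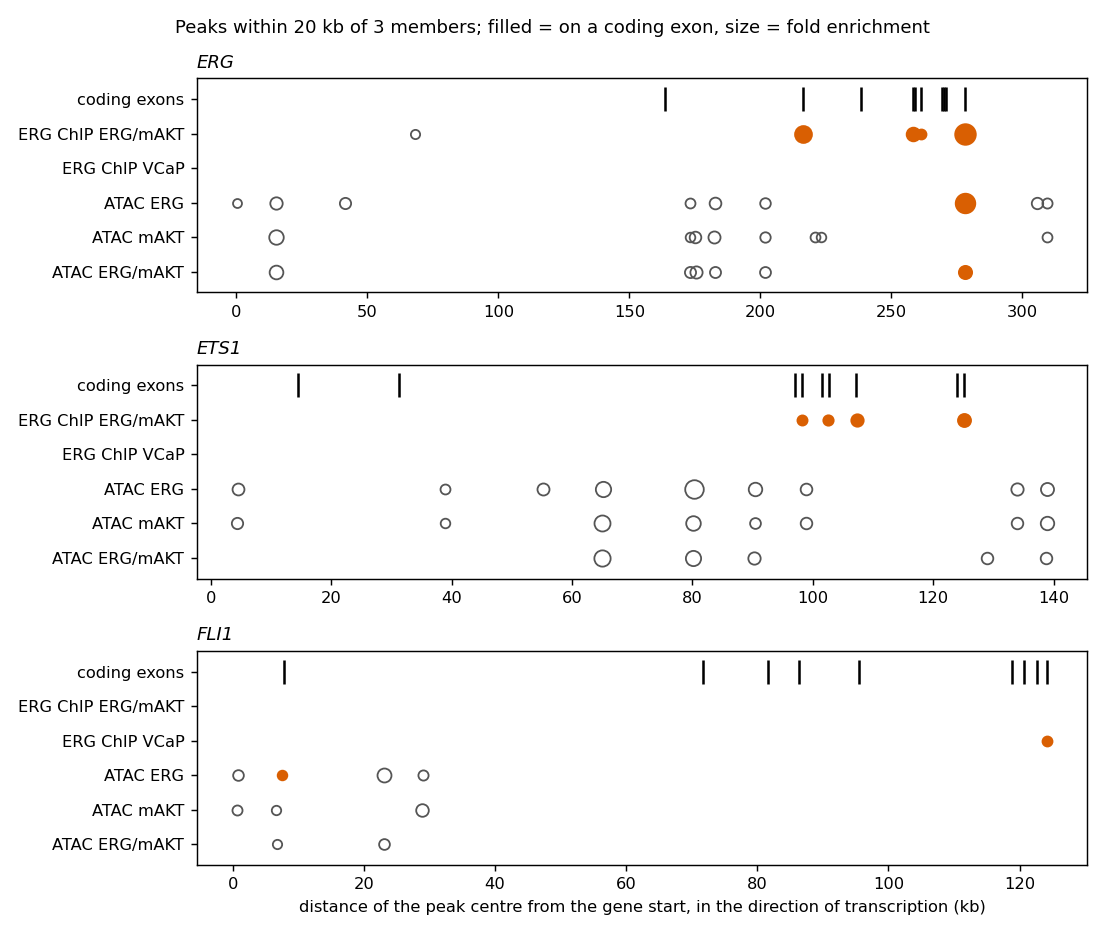
Positions of coding exons (black bars) and of peaks within 20 kb of ERG, ETS1 and FLI1 (circles), in kb from the gene start in the direction of transcription. Circle size grows with fold enrichment and filled circles overlap a coding exon. In the row of ERG ChIP in ERG/mAKT cells, 4 of 5 circles at ERG and 4 of 4 at ETS1 are filled, and a filled ATAC circle at the last ERG exon appears in both ERG lines and not in mAKT cells.

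The strongest ERG peak away from exons was in an intron of ETV6 (chr12:12013820-12013949), with a fold enrichment of 4.80 and q = 0.037. Its sequence is given with GGAA, on either strand, in capitals.
ETV6 intron, chr12:12013820-12013949: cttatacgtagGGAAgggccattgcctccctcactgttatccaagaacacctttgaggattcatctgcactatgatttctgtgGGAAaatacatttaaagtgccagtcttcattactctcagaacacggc
It holds 2 GGAA cores and no longer ETS sequence of those searched. In windows of 201 bases at the summit, on both strands, CAGGAA occurred in 1 of the 8 exonic peaks and 0 of the 5 others, beside 27.4% of all 9113 peaks and 50.9% of those with a q-value of at most 0.01. CCGGAA occurred in 0 of the 13, beside 3.74% and 10.2%. The AP-1 sequence TGACTCA occurred in 0 of the 13, beside 8.45% and 20.7%, and GGAAGTGA in 0 of the 13, beside 2.33% and 5.11%. The repeat GGAAGGAA occurred in 1 exonic peak, beside 3.32% and 8.00%. CCGGAA and CAGGAA exclude each other at 1 core, while GGAAGTGA and GGAAGGAA can share a core with either. A match describes letters and not a bound site.

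In VCaP cells 2 of 6143 ERG peaks lay within 20 kb of 2 of the 10 members, where 21.3% of all loci had at least 1, and neither had a q-value of at most 0.01. The stronger was again exonic: it lay wholly within the last coding exon of FLI1 (chr11:128680401-128680783), with a fold enrichment of 4.23, a pileup of 10 and q = 0.012. In this list 3.97% of peaks touched a coding exon. The other was in an intron of ETV6 (chr12:11837384-11837550), with a fold enrichment of 3.63 and q = 0.14. Both overlapped peaks of the list attached to the VCaP input, which was left out of the comparisons and is described below. The source of the exonic FLI1 fragments was not tested. No ERG peak in VCaP cells lay at ERG or ETS1, so the exonic peaks of ERG/mAKT cells had no counterpart there. The 201 bases at the summit of the FLI1 peak are all coding, on the forward strand, which FLI1 is transcribed from.
FLI1 last coding exon, chr11:128680408-128680608: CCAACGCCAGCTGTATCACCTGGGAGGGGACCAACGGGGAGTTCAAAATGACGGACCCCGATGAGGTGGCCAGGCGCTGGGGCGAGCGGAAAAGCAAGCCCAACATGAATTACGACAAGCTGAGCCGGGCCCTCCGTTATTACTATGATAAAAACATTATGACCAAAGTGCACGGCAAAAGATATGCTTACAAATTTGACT

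ATAC-seq gave peaks within 20 kb of all 10 members in each of the 3 lines, as at 88.4% of all loci in ERG cells, 87.3% in mAKT cells and 83.1% in ERG/mAKT cells. There were 56, 50 and 38 peaks in these lines, from lists of 63354, 57999 and 42081 peaks. An ATAC library of vector cells is also among the samples, but no list of it was used. The ATAC comparisons thus have no vector baseline. The last ERG exon was among them. It held an ATAC peak in ERG cells (chr21:39755339-39755835, fold enrichment 13.1, q = 8.51e-65) and in ERG/mAKT cells (7.21), and none in mAKT cells, which carry no ERG construct. Both peaks lay wholly within the coding exon. AKT1, the kinase of the other construct, had 0 of 13 coding exons under an ATAC peak in the mAKT and ERG/mAKT lists. ATAC fragments of an introduced ERG sequence cannot be told apart from those of the last ERG exon at the locus. This exon was the only place near a member where an ERG peak of ERG/mAKT cells overlapped an ATAC peak: 1 of 13 did in the ERG and ERG/mAKT lists and 0 of 13 in the mAKT list. Of all 9113 ERG peaks, 20.8% overlapped an ATAC peak of ERG cells, 18.5% one of ERG/mAKT cells and 18.1% one of mAKT cells.

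Gene starts were taken as the upstream end of each locus, which need not be the promoter in use. There, 8 members had an ATAC peak within 1 kb in ERG cells, 7 in mAKT cells and 6 in ERG/mAKT cells, where 56.7%, 55.7% and 51.5% of 22379 genes did. ETS2, ETV1, ETV4, ETV5, ETV6 and ELK1 had one in all 3 lines, ETS1 and GABPA in none, FLI1 in ERG and mAKT cells, and ERG in ERG cells alone. Further inside the locus, ETS1 and GABPA each had an open region over untranslated exon sequence in all 3 lines. Its fold enrichment in ERG, mAKT and ERG/mAKT cells was 9.26, 7.47 and 6.82 at GABPA (chr21:27106995-27108050). At ETS1 (chr11:128391959-128392776) it was 9.13, 9.77 and 10.0. At the start of ETV5 the fold enrichment was 9.97 in ERG cells, 9.48 in mAKT cells and 11.4 in ERG/mAKT cells, so the start stayed in the list of the line where the transcript was lowest.

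Merged over the lists, the peaks near members formed 61 open regions, of which 33 were in all 3 lines. Of 46 regions in both the ERG and the mAKT list, 13 (28.3%) had no peak in ERG/mAKT cells, beside 24.0% of the 46084 ATAC peaks of ERG cells that overlapped a peak of mAKT cells. The share at the members was thus near that of the whole list. Of these 13, 4 were at ETS1, 2 each at ETV5, FLI1 and ETS2, and 1 each at ERG, ETV4 and ELK1. The 2 at ETV5 were intronic, 5064 and 11177 bases downstream of the start. Their fold enrichment was 4.05 and 6.85 in ERG cells and 4.65 and 5.71 in mAKT cells. With an equal number of peaks taken from each list, ETV5 still had 3, 3 and 1 peaks in ERG, mAKT and ERG/mAKT cells, whereas ETS1 had 5, 7 and 5. How many loci outside the members showed such a drop at equal numbers was not counted. The 201 bases at the centre of both ETV5 regions follow (GRCh37, forward strand, with GGAA on either strand in capitals) as the regions of the gene that fell.
ETV5 intron at 11177 bases, chr3:185815624-185815824: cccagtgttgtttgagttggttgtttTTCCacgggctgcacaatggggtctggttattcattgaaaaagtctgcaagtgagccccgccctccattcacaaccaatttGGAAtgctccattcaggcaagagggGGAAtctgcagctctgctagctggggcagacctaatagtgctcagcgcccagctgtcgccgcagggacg
ETV5 intron at 5064 bases, chr3:185821737-185821937: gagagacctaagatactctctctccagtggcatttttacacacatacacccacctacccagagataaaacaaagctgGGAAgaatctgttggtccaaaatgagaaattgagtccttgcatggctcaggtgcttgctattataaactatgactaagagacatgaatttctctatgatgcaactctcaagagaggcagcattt
They hold 3 and 1 GGAA cores, and neither holds CAGGAA, which occurred in 25.3% of 63092 such windows at the ATAC peaks of ERG cells. Neither holds TGACTCA, which occurred in 15.5% of them. Each of these sequences was absent from most windows, so its absence here is the usual outcome.

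**Figure D5:**
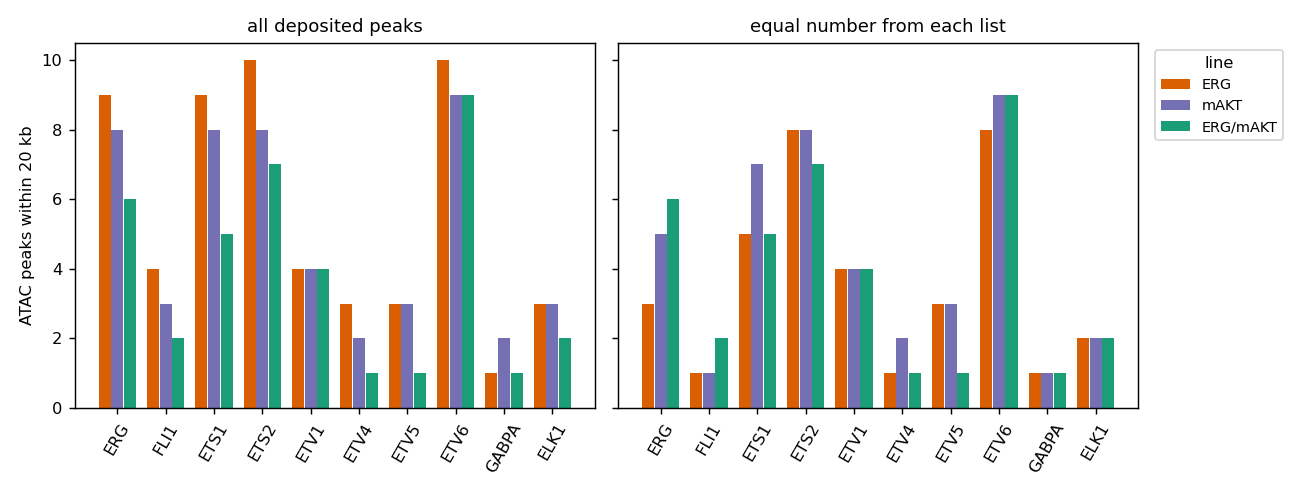
Number of ATAC peaks within 20 kb of each member in ERG, mAKT and ERG/mAKT cells (bars from 0, 1 library each), with all deposited peaks on the left and 42081 peaks of lowest p-value per list on the right. ETV5 has 3, 3 and 1 peaks on both sides, while the counts at ERG and ETS1 change order.

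Besides the last ERG exon, the strongest ATAC peaks near the members in ERG cells were at ETV1, whose transcript was the lowest of the 10 in that line. Intronic peaks at chr7:14020804-14021078 and chr7:13959714-13960237 had a fold enrichment of 14.1 and 12.2 in ERG cells. The region at the second of these was also the highest near a member in mAKT cells (11.1) and in ERG/mAKT cells (11.6). Other peaks among the 3 highest of a line were at the start of ETV5 and in ETS1 (chr11:128392077-128392776, 10.0) in ERG/mAKT cells, and upstream of ELK1 (chrX:47518029-47518807, 9.98) in mAKT cells.

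ERK2, the kinase that phosphorylates ERG, ETS1, ETS2 and ELK1, had few peaks of low q-value in either list. In vector cells 33 of 41276 peaks lay within 20 kb of 8 members, where 68.2% of all loci had at least 1. In ERG cells 3 of 5721 peaks did, all at ETV6, where 24.2% of loci had at least 1. None of the 36 had a q-value of at most 0.01, which 0.741% of all peaks had in vector cells and 3.11% in ERG cells. The highest fold enrichment was 4.31 in vector cells, in an intron of ERG (chr21:39879583-39879887, q = 0.13), and 4.86 in ERG cells, in an intron of ETV6 (chr12:11882401-11882612, q = 0.030). With equal numbers of peaks taken from both lists the counts were 4 and 3. Read depths were 8393459 ChIP and 15658943 input reads for vector cells and 15020233 and 9675359 for ERG cells.

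H3K27me3 regions had a median width of 380 to 471 bases and a median fold enrichment of 1.84 to 2.01 over the whole lists, which held 492265 regions for vector, 228233 for ERG and 252784 for ERG S96E cells. The lists were made from 19444504, 16513053 and 26454542 ChIP reads. Regions lay within 20 kb of all 10 members in vector cells and of 9 in ERG and ERG S96E cells, where 95.9%, 72.6% and 77.0% of all loci had at least 1. The 2 members of the ERG subfamily were the most covered. At FLI1 the regions took up 33.7% of the window in vector cells, 19.5% in ERG cells and 35.2% in ERG S96E cells, and at ERG 17.0%, 12.4% and 25.7%. At ETS2, at 19.8 FPKM or more in every line with RNA-seq, they covered 2.77% in vector cells and had no region in the other lists. Coverage did not order the members by RNA level. At ETV1, at 0.60 to 1.44 FPKM, it was 4.94%, 0.663% and 0.271% in vector, ERG and ERG S96E cells. At ETS1, at 13.5 to 25.0 FPKM, it was 8.76%, 6.31% and 19.3%. Of 663 regions near members in the 3 lists, 2 had a q-value of at most 0.01, both in ERG S96E cells. In the whole lists 29 regions of vector cells, 39 of ERG cells and 3413 of ERG S96E cells had one. Those near members spanned the start of FLI1 (chr11:128549871-128567089, fold enrichment 5.07, q = 5.72e-07) and the start of ERG (chr21:40026692-40036733, 3.86, q = 6.5e-04).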

How the data were processed

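RNA-seq was measured in 12 libraries of 4 RWPE1 lines, and peaks in 1 library per list. The authors aligned RNA reads with TopHat2 and deposited a Cuffdiff table of FPKM, pooled over 3 libraries per line, which also holds their fold changes, p-values and q-values, none of which were used. It has 0 unused columns of single samples. For ChIP-seq and ATAC-seq, Bowtie2 alignment by the authors used hg19, Picard took out duplicate reads, bedtools dropped blacklisted regions from the ChIP data, and MACS2 (2.1.2 or 2.2.7.1) made the lists, the ChIP lists at a p-value and not a q-value limit, with ChIP DNA pooled from 3 experiments. The deposited lists give each peak a pileup signal, a ratio (fold enrichment over input or background), and −log10 p and q-values.

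Log2 ratios used FPKM + 1 for genes of at least 1 FPKM in any line, and called means at least 2-fold. No test was run, since the table has no value per library and the authors' p-values were left unused. Peaks were counted within 20 kb of the locus in the table, and overlap meant 1 bp. A gene start was the upstream end of that locus on the strand of the gene. Coding exons are those of GENCODE 44 canonical transcripts on GRCh37, the build of the files. The genes named were all members, the listed genes past 2-fold, and 3 nearest patterns and 3 strongest peaks each. The members and lists were chosen with earlier results of these data known. A few genes of these lists are not reported here. Code was tested on simulated data. Software was Python 3.11.15, pandas 2.3.3, numpy 2.4.6, pysam 0.24.0 and matplotlib 3.10.9.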

Additional observations from a re-analysis of the deposited data

Results flagged for a closer look

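ETS1 and ETS2 were singled out because each moved in opposite directions with ERG in the lines without and with mAKT, by at least 1.1-fold both times. The effect of ERG with mAKT minus that without was −0.83 on the log2 scale for ETS1 and 0.35 for ETS2. These are differences of pooled values and were not tested.

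Both lists left out of every comparison because of doubtful labels hold peaks near the members. The list attached to the VCaP input, whose header points to ERG ChIP after LY294002 instead, has 15 peaks within 20 kb of members. Its highest, on the last coding exon of FLI1 (chr11:128680373-128680849), has a fold enrichment of 13.9 with a pileup of 41 and q = 5.55e-35. A second lies on coding exon 4 of FLI1 (chr11:128642704-128642878, 4.42). A peak in an intron of ETV6 (chr12:11837360-11837609) has a fold enrichment of 4.19 and q = 0.0022. This peak and the one on the last FLI1 exon overlap the ERG peaks near members in VCaP cells. The list attached to the VCaP ERG ChIP with LY294002 (a PI3K inhibitor) has peak names of an RWPE1 ATAC library and 54 peaks near members, the highest in an intron of ETV1 (chr7:14020804-14021023) with a fold enrichment of 13.8. It has no peak on a coding exon of ERG. At ETV5 it has 2 peaks, at the start and in the intron region at 11177 bases, and none in the region at 5064 bases. Which cells these lists came from was not tested.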

How the results depend on the processing

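No paired analysis was possible because the expression table holds 1 pooled value per line, and for the same reason no library could be left out. The number of members past 2-fold for ERG/mAKT over ERG was 1 as reported, 2 with a pseudocount of 0.1 FPKM or none, the second being ETV4, and 3 at a limit of 1.5-fold. For ERG/mAKT over mAKT it was 2 and became 4 at 1.5-fold. With no pseudocount ETV1 made it 3. The counts for the other 2 comparisons were the same under all 5 alternatives, as were those of all 4 with no filter and after rescaling, which took out median log2 ratios of −0.01, 0.02, −0.05 and −0.08. Of 120 log2 ratios under another scale, 4 moved by over 1.5-fold, all of ERG. Of these 120, 1 changed sign, that of ETV6 for ERG/mAKT over ERG, from −0.04 to 0.0045 after rescaling, and no called ratio did. A q-value of at most 0.01 left 5 ERG peaks near members in ERG/mAKT cells, 0 in VCaP cells, 0 ERK2 peaks in either line, and 0, 0 and 2 H3K27me3 regions in vector, ERG and ERG S96E cells. Within 100 kb there were 23 ERG peaks in ERG/mAKT cells, 120, 94 and 68 ATAC peaks in ERG, mAKT and ERG/mAKT cells, and 634, 332 and 416 H3K27me3 regions. With equal numbers of peaks, ERK2 peaks in vector cells numbered 4, ATAC peaks in ERG cells 36 and H3K27me3 regions in vector cells 152. The other peak counts, among them those at 5 kb and with reference loci, stayed within 1.5 times. ERG peaks outside exons rest on pileups of 4 to 6 fragments, and peak lists without a replicate limit every comparison between lines.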
